A study of Homo sapiens with 43 samples.

Results

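H3K27ac, the acetylation of lysine 27 on histone H3, was compared between LK2 and NCI-H520, a pair of established human lung squamous cell carcinoma lines. The comparison used the deposited peak lists of 2 ChIP-seq libraries of LK2 and 2 of NCI-H520, which are 4 of the 43 samples of the series. A region counted as present in a line when both libraries of that line held a peak in it, and as restricted to a line when neither library of the other line held one. Of 39000 merged regions in the 4 libraries, 1758 were restricted to LK2, 4402 were restricted to NCI-H520, 9034 were present in both lines and 23806 followed other patterns. Over all H3K27ac libraries of the series there were 118092 merged regions.

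Both lines were unmodified and untreated as far as the labels say, were grown in serum-supplemented RPMI-1640 medium, and were precipitated with the same antibody (Abcam ab4729). The further libraries set beside them are 1 H3K27ac list each of LK2_GFP and LK2_DNp63, which the labels name without saying how they were made, 1 H3K27ac list each of 11 other lung squamous lines, and the factor lists, which map binding of Sox2, Brn2 and p63. LK2 and NCI-H520 are the lines in which the series mapped both Sox2 and Brn2, and its title places these factors together in one type of squamous tumour. Nothing in the labels says whether the replicates of a line were separate cultures. The p-values below therefore reflect the spread between these particular libraries, which may be technical. No 2 of the 4 descriptions share a code that could mark a run, so the lines could not be compared within a run.

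H3K27ac marks nucleosomes at active promoters and enhancers. Promoters of widely used genes tend to carry it in most cell types, whereas enhancers carry it in a cell-type pattern, and long acetylated stretches often lie near genes of cell identity. Sox2 is an HMG-box factor that keeps progenitor cells immature, and its gene is often amplified in squamous lung tumours. Brn2 belongs to the POU factors, is best known from neural progenitors and can bind DNA beside Sox2. p63 governs the basal cells of squamous epithelium. Regions are given by their hg19 coordinates (1-based). Gene names and sequence would need an hg19 annotation and genome, which were not used here, and whether they lie in exons, introns or between genes was not examined. For the same reason the labelled cell type was not checked against marker genes.

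The LK2 libraries listed less acetylated sequence than the NCI-H520 libraries. LK2 replicate 1 held 30641 peaks over 29.1 Mb and LK2 replicate 2 held 16470 peaks over 24.6 Mb. NCI-H520 replicate 1 held 24619 peaks over 48.4 Mb and NCI-H520 replicate 2 held 29219 peaks over 51.0 Mb. The lines thus differed in covered length without overlap, but the peak number of LK2 replicate 1 was the highest of the 4 and that of LK2 replicate 2 the lowest. Wide peaks were mostly in NCI-H520: 322 and 260 of its peaks were 10 kb or wider, against 1 and 26 in LK2. The widest peak measured 13.0 and 26.5 kb in the LK2 libraries and 59.5 and 57.6 kb in those of NCI-H520. The lists hold no read counts, so sequencing depth is unknown and a list's length shows how much was called.

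Libraries of one line resembled each other more than libraries of different lines. The Jaccard index, the shared covered length divided by the combined covered length, was 0.512 for the LK2 pair and 0.569 for the NCI-H520 pair. Between the lines the 4 indices lay between 0.307 and 0.353. With 2 libraries against 2, an exact permutation test cannot give a two-sided p below 0.333. LK2_GFP, a library the region classes did not use, had an index of 0.514 and 0.472 with the LK2 libraries and of 0.328 and 0.374 with the NCI-H520 libraries. LK2_DNp63 had 0.446 and 0.390 with LK2 and 0.290 and 0.345 with NCI-H520.

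With all 4 libraries, NCI-H520 held more private regions than LK2, and they were wider. Regions restricted to NCI-H520 covered 11.3 Mb with a median width of 2009 bp, and 62 of them were 10 kb or wider. Regions restricted to LK2 covered 2.71 Mb with a median width of 1272 bp. Regions of both lines covered 32.0 Mb with a median width of 2609 bp. The order of the numbers turned without LK2 replicate 2, the shortest list: 7778 regions were then restricted to LK2 (5.06 Mb) and 4640 to NCI-H520 (12 Mb). Here and below, leaving out a library also loosens the rule, since presence in its line then rests on the remaining library alone. Without LK2 replicate 2, the 5272 regions seen in LK2 replicate 1 alone (median width 472 bp) thus count as restricted to LK2. Without LK2 replicate 1 the numbers were 2638 and 7556, without NCI-H520 replicate 1 they were 2320 and 11635, and without NCI-H520 replicate 2 they were 3193 and 10000. The order of the median widths turned without NCI-H520 replicate 1 (1313 bp for LK2, 845 bp for NCI-H520) and without NCI-H520 replicate 2 (1265 and 1003 bp). The covered length was greater for NCI-H520 in each of these cases. With the same number of highest-score peaks from each list, 2017 regions were restricted to LK2 and 2888 to NCI-H520. The lists themselves set these counts, which carry no test.

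Seen from LK2, 13.9% of the 12631 regions found in both its libraries were in neither NCI-H520 library and 71.5% were in both. Seen from NCI-H520, 26.2% of 16792 regions were in neither LK2 library and 53.8% were in both. The most frequent patterns after that of all 4 libraries were 5532 regions in NCI-H520 replicate 2 alone, 5272 in LK2 replicate 1 alone, 4459 in NCI-H520 replicate 1 alone and the 4402 in both NCI-H520 libraries. LK2_GFP held 38.6% of the regions seen in LK2 replicate 1 alone and 43.6% of the 715 seen in LK2 replicate 2 alone. It held 7.31% and 15.2% of those seen in NCI-H520 replicate 1 or 2 alone.

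**Figure D1:**
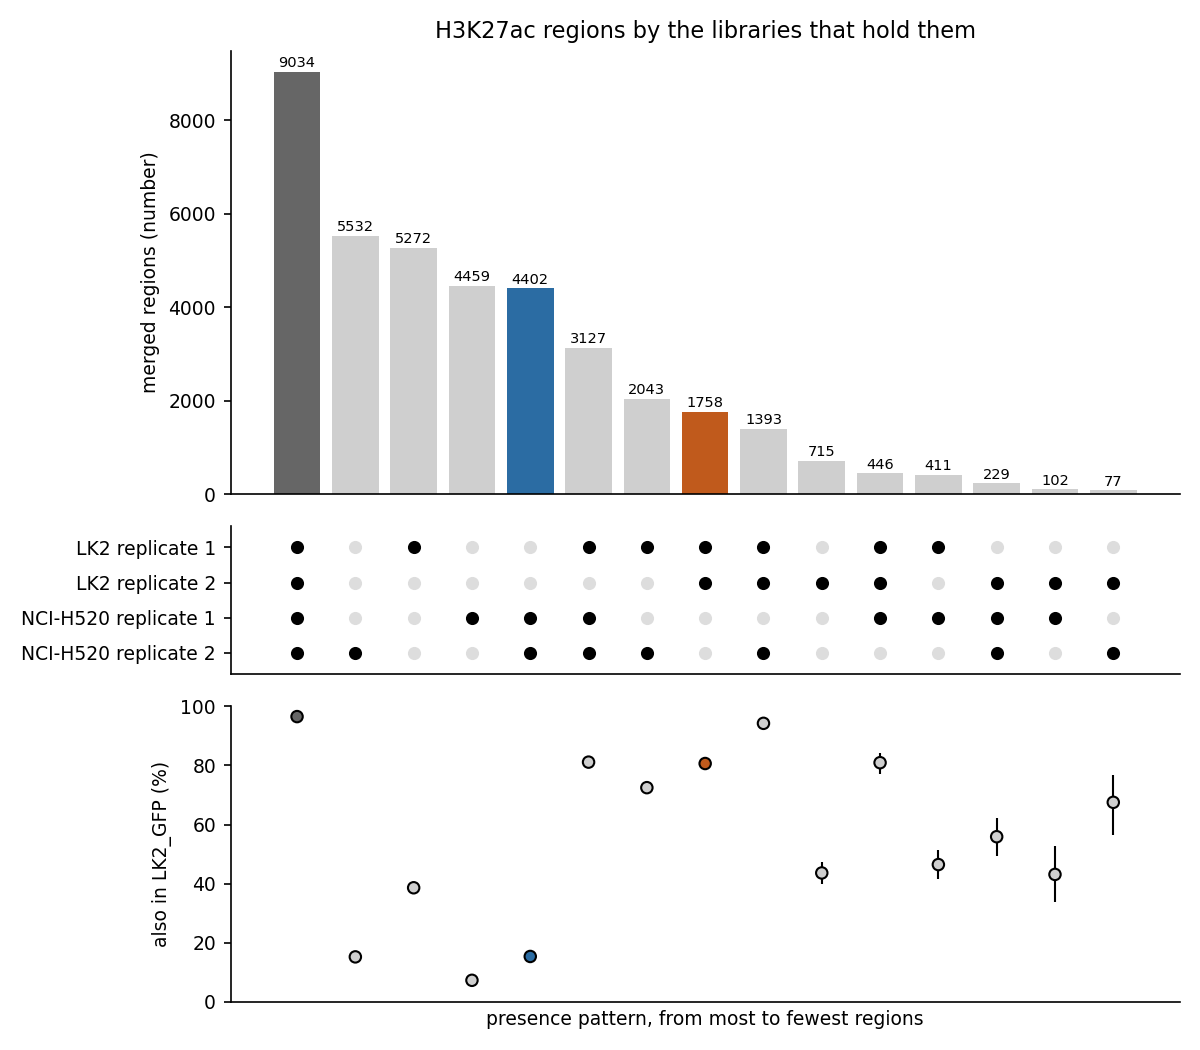
Number of merged H3K27ac regions for each presence pattern over the 4 libraries (bars, with filled circles for the libraries that hold the region), and below it the percentage of each pattern's regions that overlap a peak of LK2_GFP (points, with Wilson 95% intervals). The 9034 regions in all 4 libraries form the tallest bar, and LK2_GFP held 80.7% of the 1758 LK2-restricted regions and 15.4% of the 4402 NCI-H520-restricted regions.

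LK2_GFP and LK2_DNp63 held most of the LK2-restricted regions and few of the NCI-H520-restricted regions. LK2_GFP held 80.7% of the LK2-restricted regions (Wilson 95% interval 78.7 to 82.4%), 15.4% of the NCI-H520-restricted regions (14.3 to 16.5%) and 96.5% of the regions of both lines. LK2_DNp63 held 64.1% (61.8 to 66.3%), 13.9% (12.9 to 15.0%) and 91.8%. The intervals cover counting error over regions only. A single one of the 11 other lines held 18.5 to 38.2% of the LK2-restricted regions and 14.5 to 25.8% of the NCI-H520-restricted regions. The shares of LK2-restricted regions thus set LK2_GFP and LK2_DNp63 apart from those lines. Their shares of NCI-H520-restricted regions, near the lower end of those lines, did not. For LK2_GFP, leaving out 1 of the 4 libraries kept the order of the private classes, but without LK2 replicate 1 it held 70.4% of the LK2-restricted and 42.8% of the NCI-H520-restricted regions, and without LK2 replicate 2 it held 51.3% and 17.4%. LK2_GFP also held 81.1% of the 3127 regions that were in LK2 replicate 1 and both NCI-H520 libraries but missing from LK2 replicate 2.

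Regions of both lines were also longer in NCI-H520. The covered length per region, averaged over a line's libraries, had a median of 1570 bp in LK2 and 2180 bp in NCI-H520. In 5262 of the 9034 regions (58.2%) both NCI-H520 libraries covered more than both LK2 libraries. The opposite held in 681 regions (7.54%), and in 3091 the libraries overlapped. The lists' covered lengths differ in the same direction, and their part in this was not tested.

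The widest region of both lines, chr15:71698244-71750026, was covered over 38.1 and 46.0 kb in LK2 and 51.6 and 51.2 kb in NCI-H520. It held 6 Sox2 peaks of each line, 4 Brn2 peaks of LK2 and 1 of NCI-H520, and 9 of the 11 other lines had a peak there. Its length was 45.6 kb in LK2_GFP and 14.0 kb in LK2_DNp63. At chr18:39237389-39296855, the coverage was 21.0 and 27.8 kb in LK2 and 59.5 and 53.1 kb in NCI-H520. LK2_GFP covered 1.78 kb of that region, LK2_DNp63 none, and no other line had a peak, so the LK2 libraries and their named derivatives differed there. At chr16:74051384-74108971, LK2 covered 1.74 and 2.44 kb and NCI-H520 55.2 and 57.6 kb, with 1 Sox2 peak of LK2 and 7 of NCI-H520. The region thus counted as present in both lines while its length was far greater in NCI-H520.

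The 8 widest regions restricted to NCI-H520 were covered over 24.3 to 47.1 kb on average. The widest, chr12:98624575-98672045, was covered over 46.8 and 47.5 kb in the NCI-H520 libraries and had no peak in LK2, LK2_GFP, LK2_DNp63 or any of the 11 other lines. It held 6 Sox2 peaks of NCI-H520. The next, chr8:9448419-9495677, measured 45.7 and 45.5 kb and held 5 Sox2 peaks of NCI-H520. In all 8 regions there was a Sox2 peak of NCI-H520, and in none a Sox2 or Brn2 peak of LK2 or an H3K27ac peak of LK2_GFP. Over all NCI-H520-restricted regions, of median width 2009 bp, Sox2 of NCI-H520 was in 35.3% and Sox2 of LK2 in 6.18%. The 8 were picked for width, and a wider region has more room for a peak. The number of other lines with a peak ranged up to 10, at chr17:70381634-70414086.

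The 8 widest regions restricted to LK2 were shorter, at 5.96 to 10.3 kb, and all 8 had a peak in LK2_GFP. The widest, chr5:135876132-135887785, was covered over 9.82 and 10.7 kb in the LK2 libraries, 11.6 kb in LK2_GFP and 11.1 kb in LK2_DNp63, with no peak in any of the 11 other lines. The next, chr9:129288082-129297870, was covered over 9.05 and 9.52 kb and held 3 Sox2 and 3 Brn2 peaks of LK2. Sox2 of LK2 was present in 4 of the 8 regions and Sox2 of NCI-H520 in 0. Over all LK2-restricted regions, of median width 1272 bp, the shares were 25.4% and 7.91%. These 8 were likewise picked for width. At chr20:19732028-19740485, covered over 7.74 and 7.87 kb in LK2, all 11 other lines had a peak, so that NCI-H520 was the only unmodified line of the series without one. At chr1:199129642-199136743, with 2 Sox2 and 2 Brn2 peaks of LK2, the coverage was 5.27 and 6.83 kb in LK2, 5.77 kb in LK2_GFP and 0.522 kb in LK2_DNp63.

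Most private regions of either line were uncommon among the 11 other squamous lines, whereas regions of both lines were widespread. No other line held a peak in 708 of the LK2-restricted regions (40.3%), in 2368 of the NCI-H520-restricted regions (53.8%) and in 801 of the regions of both lines (8.87%). All 11 lines held a peak in 4.72%, 3.98% and 61.4% of these classes. The order of the private classes turned without LK2 replicate 1, when 45.8% of the LK2-restricted and 37.3% of the NCI-H520-restricted regions had no peak in another line. Without NCI-H520 replicate 2 the shares were 25% and 61.9%. A single line held 18.5 to 38.2% of the LK2-restricted regions (median 24.3%), 14.5 to 25.8% of the NCI-H520-restricted regions (median 19.0%) and 70.0 to 84.0% of the regions of both lines (median 78.1%).

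With all 4 libraries, the share of LK2-restricted regions was above that of NCI-H520-restricted regions in 11 of 11 other lines, also when each region was replaced by a window of 1000 bp at its centre. This did not survive the loss of an LK2 library. Without LK2 replicate 1 the share of LK2-restricted regions was higher in 0 of 11 lines (gaps of -21.3 to -11.6 percentage points), and without LK2 replicate 2 in 6 of 11 (-2.19 to 9.32 points). Without NCI-H520 replicate 1 it was higher in 11 of 11 (1.39 to 14.2 points), and without NCI-H520 replicate 2 in 11 of 11 (15.4 to 41.4 points). With all 4 libraries the gap was 11 to 14.6 points in KNS62, HCC95, HARA, LC-1/SQSF and HCC2814, and 1.20 to 3.68 points in the other lines (HCC2450, HCC2279, SQ-1, EBC-1, NCI-H2887 and Calu-1). KNS62, for example, held 38.2% of the LK2-restricted and 23.6% of the NCI-H520-restricted regions, and Calu-1 19.6% and 18.4%. Of the 3159 p63 peaks mapped in LK2_DNp63, 33.1 to 55.4% lay in an H3K27ac peak in the lines with the wide gap and 12.3 to 18.1% in the lines with the narrow gap. These lines were divided here by the gap itself, so the values are a description, and whether p63 sites bear on the gap was not tested. The p63 list touched 4.78% of the LK2-restricted regions (3.88 to 5.88%), 1.52% of the NCI-H520-restricted regions (1.20 to 1.93%) and 3.92% of those of both lines.

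**Figure D2:**
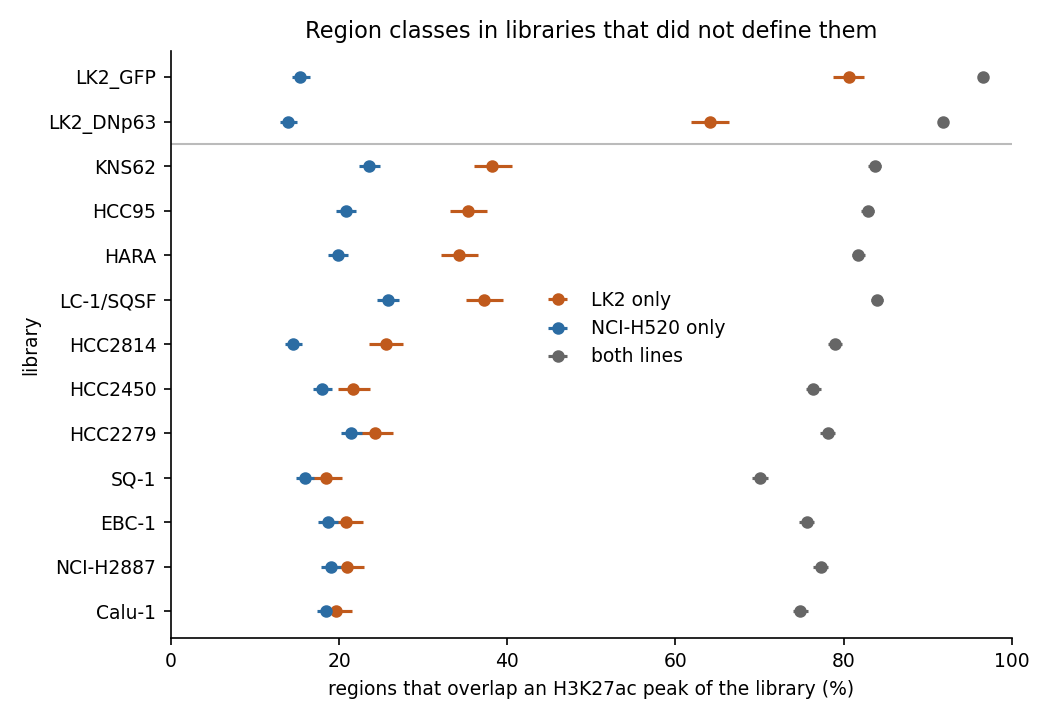
Percentage of the regions of each class that overlap an H3K27ac peak of LK2_GFP, LK2_DNp63 and each of 11 other lung squamous lines (points, with Wilson 95% intervals over regions). The regions of both lines lie between 70.0 and 84.0% in the 11 lines, and the LK2-restricted points lie to the right of the NCI-H520-restricted points in each of them with all 4 libraries used, by 11 to 14.6 points in the upper 5 and by 1.20 to 3.68 points in the rest.

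Sox2 peaks were more frequent in the private regions of the line in which they were mapped than in those of the other line. Sox2 of LK2 was present in 25.4% of the LK2-restricted regions (23.4 to 27.5%), 6.18% of the NCI-H520-restricted regions (5.51 to 6.93%) and 14.8% of those of both lines. Sox2 of NCI-H520 was present in 7.91% (6.74 to 9.26%), 35.3% (33.9 to 36.7%) and 28.1%. In windows of 1000 bp at the region centres, which remove the difference in width, Sox2 of LK2 was in 21.4% and 5.38% of the private regions of LK2 and NCI-H520, and Sox2 of NCI-H520 in 6.43% and 30.8%. LK2_GFP, with a Sox2 list of its own, had Sox2 in 36.6% and 10.9%. Each factor and line had 1 library, so these shares were not tested over samples, and no p is given.

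This order held in each of the 4 cases with 1 H3K27ac library left out, but the shares moved. Without LK2 replicate 2, Sox2 of LK2 was in 12.1% of the LK2-restricted and 6.94% of the NCI-H520-restricted regions, and Sox2 of NCI-H520 in 4.44% and 35.5%. Without NCI-H520 replicate 2, Sox2 of LK2 was in 16.4% and 6.21%, and Sox2 of NCI-H520 in 8.17% and 23.4%. Without NCI-H520 replicate 1, Sox2 of NCI-H520 was in 11.7% of the LK2-restricted and 21.6% of the NCI-H520-restricted regions.

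Each line's Sox2 was most frequent where no other line was acetylated. Among regions without a peak in the 11 other lines, Sox2 of LK2 was in 37.1% of the LK2-restricted regions (33.7 to 40.8%), and Sox2 of NCI-H520 was in 39.8% of the NCI-H520-restricted regions (37.9 to 41.8%). In the 801 regions that only LK2 and NCI-H520 shared, Sox2 of LK2 was in 51.1% and Sox2 of NCI-H520 in 72.4%. Where 6 or more other lines had a peak, the same lists were in 11.7% (Sox2 of LK2, LK2-restricted), 20.8% (Sox2 of NCI-H520, NCI-H520-restricted), 7.63% and 20.2% (both lists in that order, regions of both lines). Each line's own Sox2 kept this order in its private regions with any 1 H3K27ac library left out. Without LK2 replicate 2, Sox2 of LK2 was in 16.4% of the LK2-restricted regions absent from other lines and 6.98% of those in 6 or more. Without NCI-H520 replicate 1, Sox2 of NCI-H520 was in 24.7% and 12.8% of the NCI-H520-restricted regions, and without NCI-H520 replicate 2 in 24.5% and 15.8%. Without NCI-H520 replicate 2, Sox2 of LK2 was in 36.8% and 5.39% of the LK2-restricted regions.

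Brn2 was unevenly mapped, with 4819 peaks in LK2 and 1298 in NCI-H520, so the lists are set side by side. Brn2 of LK2 was present in 11.3% of the LK2-restricted regions (9.87 to 12.8%), 2.77% of the NCI-H520-restricted regions (2.33 to 3.30%) and 15.5% of those of both lines. Brn2 of NCI-H520 was present in 1 LK2-restricted region, in 69 NCI-H520-restricted regions (1.57%) and in 6.23% of those of both lines. In both lists the regions of both lines thus held the highest share. Without LK2 replicate 2, Brn2 of LK2 was in 3.66% of the LK2-restricted and 3.25% of the NCI-H520-restricted regions, and the difference between the classes was nearly gone. Without LK2 replicate 1 the shares were 8.64% and 4.88%, without NCI-H520 replicate 1 they were 13.4% and 1.80%, and without NCI-H520 replicate 2 they were 7.83% and 2.19%. Brn2 of NCI-H520 was in 2.50% of the NCI-H520-restricted regions without LK2 replicate 1, in 0.731% without NCI-H520 replicate 1 and in 0.770% without NCI-H520 replicate 2.

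Regions with Brn2 of a line held Sox2 of that line more often than regions without it. The shares are over whole regions of unequal width. A wider region has more room for both factors, and width was not adjusted for. Of the 198 LK2-restricted regions with Brn2 of LK2, 144 (72.7%, 66.1 to 78.5%) held Sox2 of LK2, against 19.4% of the 1560 without Brn2. In the regions of both lines the shares were 37.3% of 1397 and 10.7% of 7637 for the factors of LK2, and 33.0% of 563 and 27.8% of 8471 for those of NCI-H520, the smaller gap. Of the 69 NCI-H520-restricted regions with Brn2 of NCI-H520, 40 (58.0%, 46.2 to 68.9%) held Sox2 of NCI-H520, against 34.9% of the rest. The regions are not samples, and the shares are descriptions of single libraries. In the private regions, Sox2 was the more frequent beside Brn2 in each of the 4 cases with 1 H3K27ac library left out. Of these, the NCI-H520-restricted regions without LK2 replicate 1 had the closest shares, at 37.0% of 189 regions with Brn2 and 30% of the rest. In the LK2-restricted regions without LK2 replicate 2 they were 61.1% and 10.2%, and without NCI-H520 replicate 2 they were 65.6% and 12.2%.

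In the private regions of a line, most regions with that line's Sox2 lacked Sox2 of the other line, but the reverse did not hold. Of 447 LK2-restricted regions with Sox2 of LK2, 84 (18.8%) also held Sox2 of NCI-H520. Of 1553 NCI-H520-restricted regions with Sox2 of NCI-H520, 216 (13.9%) also held Sox2 of LK2. Conversely, the 84 were 60.4% of the 139 LK2-restricted regions with Sox2 of NCI-H520. The 216 were 79.4% of the 272 NCI-H520-restricted regions with Sox2 of LK2. In the regions of both lines, 1062 held Sox2 of both, which is 79.4% of the 1337 with Sox2 of LK2 and 41.8% of the 2541 with Sox2 of NCI-H520. Most regions had neither factor: no Sox2 or Brn2 peak of either line was found in 68.7% of the LK2-restricted regions, 62.3% of the NCI-H520-restricted regions and 61.2% of those of both lines. Conversely, 50.7% of the Sox2 peaks of LK2 and 36.1% of those of NCI-H520 lay in no region of the 4 H3K27ac libraries. Only 5.61% of the Sox2 peaks of LK2 lay in LK2-restricted regions, and 14.0% of those of NCI-H520 lay in NCI-H520-restricted regions.

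**Figure D3:**
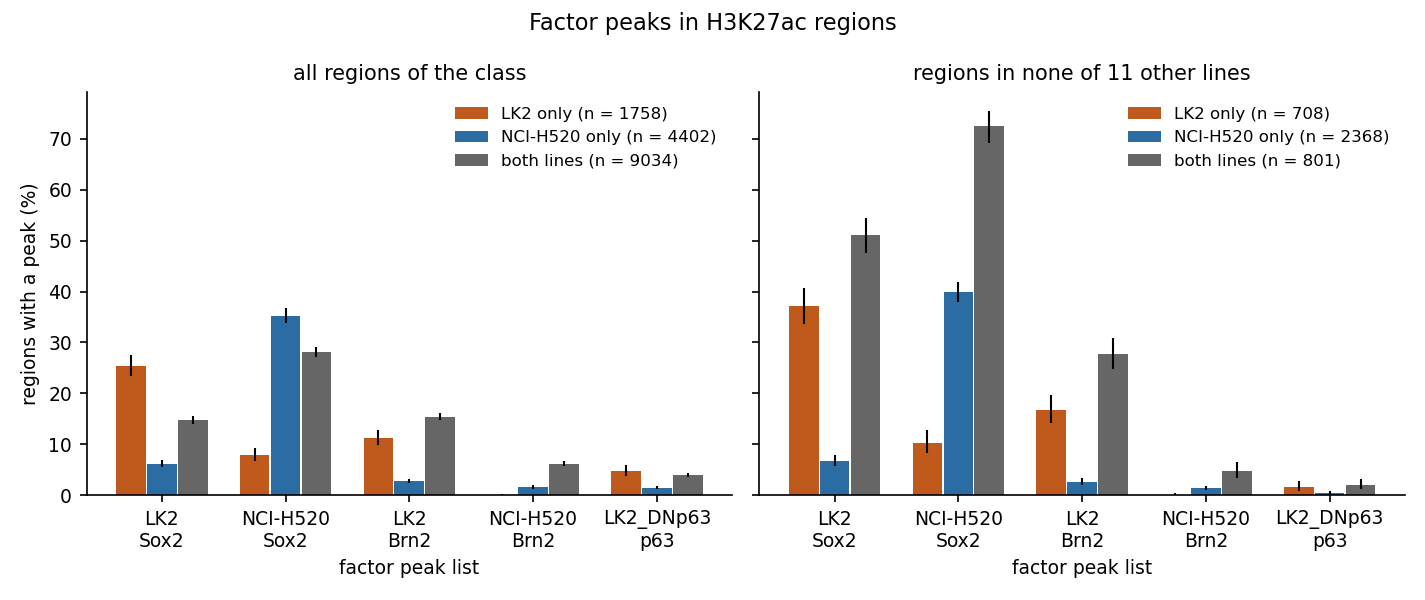
Percentage of H3K27ac regions that hold a peak of each factor list, for LK2-restricted regions, NCI-H520-restricted regions and regions of both lines (bars from 0, with Wilson 95% intervals over regions), in all regions of the class (left) and in those without a peak in 11 other lines (right). Sox2 of LK2 reaches 25.4% and 37.1% of the LK2-restricted regions in the 2 panels, and Sox2 of NCI-H520 reaches 35.3% and 39.8% of the NCI-H520-restricted regions.

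Private regions of NCI-H520 lay closer together than those of LK2. Of the NCI-H520-restricted regions, 55.2% had another within 50 kb and the median gap was 36.6 kb, against 31.7% and 205 kb for the less numerous LK2-restricted regions. A region restricted to the other line lay within 50 kb of 3.52% of the NCI-H520-restricted and 8.19% of the LK2-restricted regions. Blocks of 1 Mb with at least 5 regions of a class numbered 260 for NCI-H520, holding 47.3% of its private regions, and 35 for LK2, holding 13.0%. A class of more regions has shorter gaps, and the gaps were not adjusted for number. Without LK2 replicate 2, when the LK2-restricted regions were the more numerous, 53% of them and 55.4% of the NCI-H520-restricted regions had another of their class within 50 kb.

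The blocks described here were chosen after their values were seen. The densest block of NCI-H520, chr5:123000001-124000000, held 30 NCI-H520-restricted regions, of which 22 had no peak in any other line. It contained 49 and 62 peaks in the NCI-H520 libraries, 8 and 5 in the LK2 libraries, 7 in LK2_GFP, 38 Sox2 peaks of NCI-H520 and 8 of LK2. Next came chr17:55000001-56000000 with 28 regions, chr11:95000001-96000000 with 24 and chr16:50000001-51000000 with 21. The densest block of LK2 was also on chromosome 5, at chr5:14000001-15000000. It held 12 LK2-restricted regions, with 32 and 19 peaks in LK2, 24 in LK2_GFP and 1 and 4 in NCI-H520. In chr18:37000001-38000000, 9 regions restricted to LK2 lay among 9 restricted to NCI-H520 and 10 of both lines.

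Some blocks with private regions had no peak of the other line at all. In 12 blocks with NCI-H520-restricted regions, neither the LK2 libraries nor LK2_GFP nor LK2_DNp63 had a peak. The one with the most regions, chr16:13000001-14000000, held 11 such regions and 17 and 22 peaks in NCI-H520, and 6 of the 11 other lines had peaks there. In 32 blocks with LK2-restricted regions neither NCI-H520 library had a peak. The fullest, chr8:31000001-32000000, held 6 LK2-restricted regions, 7 and 7 peaks in LK2, 6 in LK2_GFP and 5 in LK2_DNp63. A lost stretch of DNA and unacetylated DNA cannot be told apart in H3K27ac peak lists. Factor peaks of the other line were not counted in these blocks, and loss of DNA was not tested.

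The chromosomes differed in how the private regions were divided. LK2-restricted regions were fewer than NCI-H520-restricted regions on 23 of 23 chromosomes, with 39.9 per 100 over the genome. Without LK2 replicate 2 they were fewer on 2 of 23, so the counts that follow hold for all 4 libraries used together. Chromosome 16 had 27 against 247, chromosome 19 had 12 against 127, chromosome 22 had 12 against 117 and chromosome X had 17 against 164. The numbers were closest on chromosome 8, with 127 against 171, chromosome 9, with 103 against 142, and chromosome 4, with 104 against 149. On chromosome 16 the regions of both lines made up 4.14% of their class, the NCI-H520-restricted regions 5.61% and the LK2-restricted regions 1.54%. Copy number was not measured in these files, and its part was not tested.

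**Figure D4:**
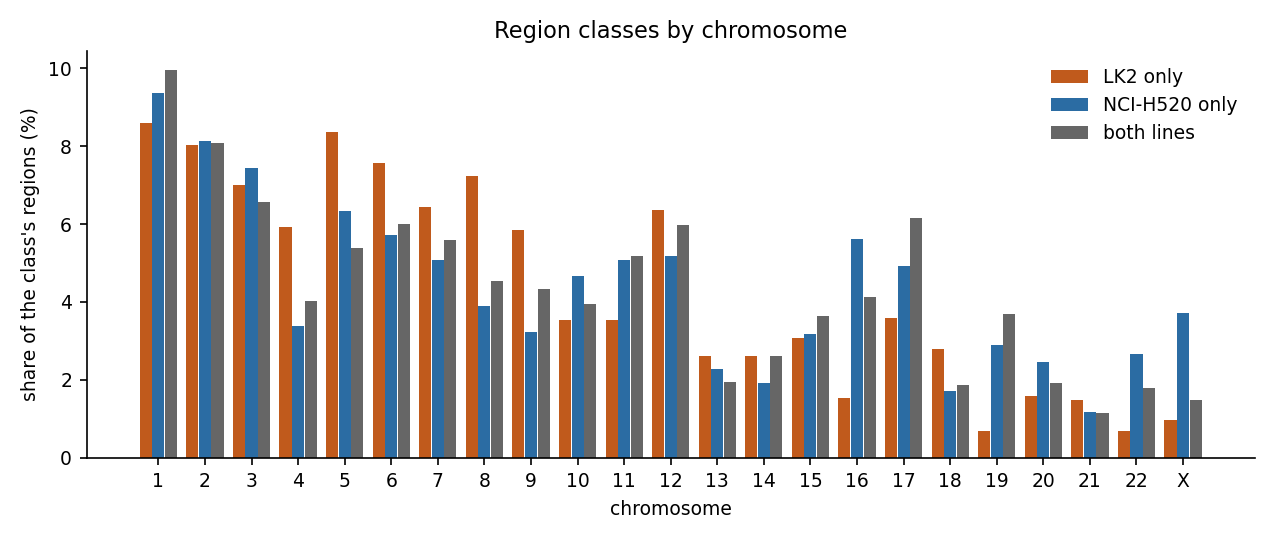
Share of each class's regions on chromosomes 1 to 22 and X, in percent of the class (bars from 0). NCI-H520-restricted regions exceed LK2-restricted regions most visibly on chromosomes 16, 19, 22 and X. The reverse is seen most on chromosomes 4, 8 and 9, and less so on chromosomes 5, 6, 7, 12, 13, 14, 18 and 21.

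Covered length per 50 kb bin gave a measure with a test. Each library's lengths were brought to the same sum. The log2 of the scaled length with 1000 bp added was then tested with limma over 10859 bins. Scaling raised the lengths of LK2 relative to those of NCI-H520, so higher in a line means a larger share of its libraries' called length. At a Benjamini-Hochberg adjusted p under 0.05, 1597 bins (14.7%) differed, of which 898 (8.27%) were higher in NCI-H520 and 699 (6.44%) were higher in LK2. The median difference, NCI-H520 minus LK2, was 2.06 (log2) in the former, -1.79 in the latter and -0.21 over all bins tested. In 501 of the 898 bins both LK2 libraries were at 0, and in 309 of the 699 both NCI-H520 libraries were at 0. These log2 values depend on the pseudocount and are no bound. The line at 0 shows no spread in such bins. Their standard errors and p-values rest on the other line's pair and on the variance that limma shares across bins. The libraries of the lines did not overlap in 7226 bins (66.5%), all 1597 included. Of the 7226, 2471 were higher in NCI-H520 and 4755 in LK2, the opposite balance to that of the called bins. Without the scaling, 2080 bins were higher in NCI-H520 and 291 in LK2, and the share higher in NCI-H520 moved from 56.2% to 87.7%. The median difference over the bins then tested was 0.48.

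The number of bins depended on single libraries. Without LK2 replicate 2, limma called 0 bins, with 2540 at an unadjusted p under 0.05 and a lowest adjusted p of 0.111. Without LK2 replicate 1, 64 bins were higher in NCI-H520 and 270 in LK2. Without NCI-H520 replicate 1 the numbers were 262 and 1, and without NCI-H520 replicate 2 they were 390 and 15. The lone library of a line was then assumed to vary like the other line's pair. None of the 1597 differences changed sign in these or the other alternatives in which the bin was tested. For most alternatives this was fixed in advance, because the libraries of the lines did not overlap in these bins. Leaving out a library or changing the pseudocount, filter or replicate block could not turn a sign. The unscaled lengths, equal list lengths and added LK2_GFP covered 1462, 1442 and 1484 of the bins, and only part of these could turn. A line at 0, as in 501 of the 898 and 309 of the 699 bins, stays at 0 with unscaled or equal lists. Removing the scaling lowers LK2 relative to NCI-H520, so it could turn only bins higher in LK2. Adding LK2_GFP could not turn bins with NCI-H520 at 0. How many bins could turn was not counted.

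LK2_GFP, which took no part in the fit, had a scaled length below both NCI-H520 libraries in 883 of the 898 bins higher in NCI-H520 (98.3%) and above both in 673 of the 699 bins higher in LK2 (96.3%). For LK2_DNp63 the counts were 873 (97.2%) and 613 (87.7%). With 0 in both NCI-H520 libraries, as in 309 of the 699 bins, any length counts as above both. The 898 bins were called for their high length in NCI-H520. A low length there in a further library therefore does not by itself show likeness to LK2. The same shares were not computed for the other lines. By a stricter measure, on the LK2 side of the midpoint between the lines' means, LK2_GFP lay there in 854 of the 898 bins (95.1%) and 507 of the 699 (72.5%), and LK2_DNp63 in 844 (94.0%) and 432 (61.8%). Of the bins higher in NCI-H520, 21.4% had no H3K27ac in any other line, against 10.7% of those higher in LK2 and 5.0% of the 9262 bins not called. All 11 other lines had H3K27ac in 14.1%, 29.3% and 62.6%. Without LK2 replicate 1, the bins higher in NCI-H520 and in LK2 were nearly level, at 26.6% and 23.3% with no other line and 9.38% and 10.7% with all 11. Without NCI-H520 replicate 2 the shares were 25.9% and 6.67% with none and 5.13% and 20% with all 11, over 390 and 15 bins.

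Sox2 of NCI-H520 was present in 77.7% of the bins higher in NCI-H520 (74.9 to 80.3%), 29.3% of those higher in LK2 and 38.9% of those not called. Sox2 of LK2 was present in 46.1% of the bins higher in LK2 (42.4 to 49.8%), 26.7% of those higher in NCI-H520 and 23.5% of those not called. Brn2 of LK2 was in 28.9%, 13.4% and 19.9% in the same order. Brn2 of NCI-H520 was in 8.46% of the bins higher in NCI-H520, 1.86% of those higher in LK2 and 7.29% of those not called. The p63 list of LK2_DNp63 was in 7.91% of the bins higher in NCI-H520, 14.4% of those higher in LK2 and 10.3% of those not called. Sox2 of HCC95 was in 30.2%, 37.1% and 34.4% of the bins higher in NCI-H520, higher in LK2 and not called, a narrower range than that of either line's own Sox2 list. Without LK2 replicate 1, Sox2 of NCI-H520 was in 93.8% of the 64 bins higher in NCI-H520 and 21.5% of the 270 higher in LK2, Sox2 of LK2 was in 34.4% and 55.9%, and Brn2 of NCI-H520 was in 26.6% and 1.11%. Without NCI-H520 replicate 1, Sox2 of LK2 was in 15.6%, Brn2 of LK2 in 6.49% and Brn2 of NCI-H520 in 5.34% of the 262 bins higher in NCI-H520. Without NCI-H520 replicate 2, only 15 bins were higher in LK2, and Sox2 of LK2 and Sox2 of NCI-H520 were each in 26.7% of them, Brn2 of LK2 in 6.67% and Brn2 of NCI-H520 in none. In the 390 bins then higher in NCI-H520, Sox2 of NCI-H520 was in 67.7%, Sox2 of LK2 in 20% and Brn2 of LK2 in 6.67%.

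**Figure D5:**
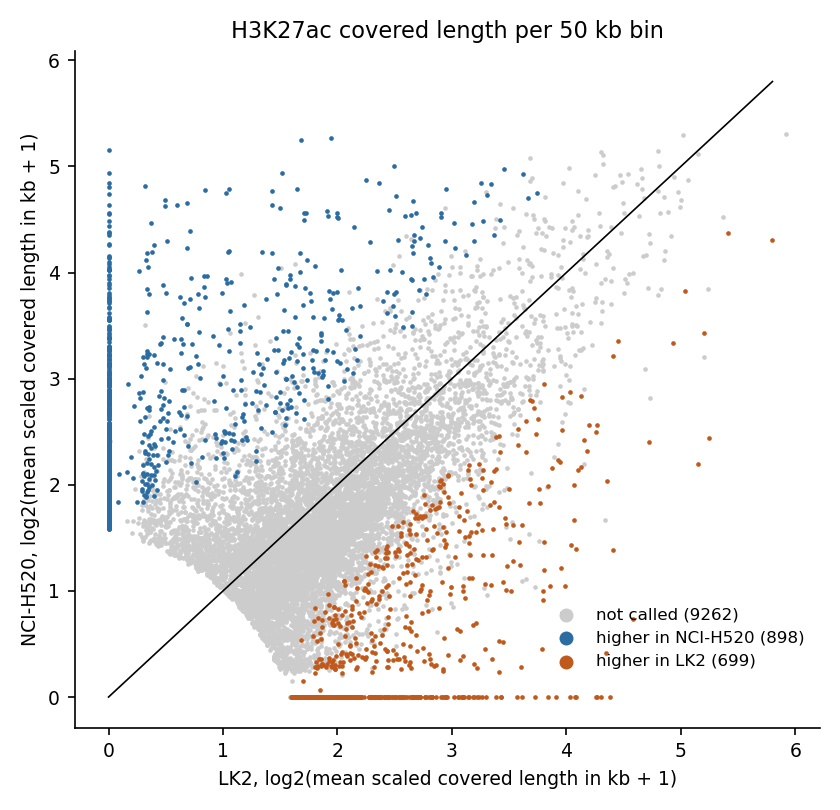
Mean scaled H3K27ac length of each of the 10859 tested bins of 50 kb in LK2 (x axis) and NCI-H520 (y axis), both as log2(kb + 1), with the diagonal of equal length. The 898 bins higher in NCI-H520 lie above the diagonal and the 699 higher in LK2 below it, many of them on the axes where the other line was at 0.

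Among the 12 bins with the largest difference in favour of NCI-H520, the first was chr8:9450001-9500000. Its scaled length was 0 and 0 kb in LK2, 36.4 and 32.9 kb in NCI-H520 and 0 kb in LK2_GFP, a log2 difference of 5.16 ± 0.19 (SE, n = 2 and 2, limma adjusted p = 0.00447). It overlaps the second widest private region of NCI-H520 and held 5 Sox2 peaks of that line. The bin chr5:168450001-168500000 had 25.2 and 34.1 kb in NCI-H520 and none in LK2. At chr17:55500001-55550000, in the second densest block, LK2 replicate 1 had 0.496 kb, LK2 replicate 2 none and NCI-H520 21.8 and 32.5 kb. Over the 12 bins the log2 differences ran from 4.35 to 5.16, with limma adjusted p from 0.00447 to 0.00699. All 12 held Sox2 of NCI-H520, 4 held Sox2 of LK2, 3 held Brn2 of NCI-H520, and 3 had no H3K27ac in any other line.

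Among the 12 bins with the largest difference in favour of LK2, the first was chr5:174150001-174200000. It had 17.8 and 21.9 kb in LK2, 0 and 0 kb in NCI-H520 and 17.9 kb in LK2_GFP, a log2 difference of -4.37 ± 0.21 (SE, n = 2 and 2, limma adjusted p = 0.00447). The next, chr9:129250001-129300000, had 17.0 and 20.5 kb in LK2, none in NCI-H520, 3 Sox2 and 3 Brn2 peaks of LK2 and H3K27ac in 1 other line. In contrast, chr5:14250001-14300000, with 10.5 and 21.1 kb in LK2 and none in NCI-H520, was acetylated in all 11 other lines. Over the 12 bins the log2 differences ran from -4.37 to -3.68, with limma adjusted p from 0.00447 to 0.0202. All 12 held Sox2 of LK2 and 8 held Brn2 of LK2, while 4 held Sox2 of NCI-H520 and 0 held its Brn2.

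The named derivatives did not match LK2 at each of these bins. At chr18:37300001-37350000 the length was 10.2 and 21.7 kb in LK2, but 1.49 kb in LK2_GFP and 1.08 kb in LK2_DNp63. At chr1:199100001-199150000 it was 13.3 and 22.9 kb in LK2, 15.1 kb in LK2_GFP and 0.546 kb in LK2_DNp63. At chr6:23100001-23150000 it was 6.88 and 19.8 kb in LK2, 5.74 kb in LK2_GFP and 0.546 kb in LK2_DNp63. All 3 bins held Sox2 and Brn2 peaks of LK2, and NCI-H520 was at 0 in each. This was not particular to them. The bin chr9:129250001-129300000, for example, had the same traits, with 16.8 kb in LK2_GFP and 22.4 kb in LK2_DNp63.

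Most called bins stood alone, with no adjacent bin called in the same direction. The 898 bins higher in NCI-H520 formed 668 runs, 129 of them of 2 or more adjacent bins, and the longest, chr16:73950001-74350000, spanned 8 bins (400 kb). The 699 bins higher in LK2 formed 642 runs, 50 of them of 2 or more, and the longest, chr5:14100001-14300000, spanned 4 bins (200 kb). By chromosome, the bins higher in NCI-H520 made up 16.1% of the tested bins of chromosome X and 13.2% of those of chromosome 16, where 1.79% and 2.21% were higher in LK2. On chromosome 8, 11.6% of the tested bins were higher in LK2 and 7.30% in NCI-H520. Chromosome 5 had high shares in both directions, with 11.7% higher in NCI-H520 and 10.7% higher in LK2.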

How the data were processed

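H3K27ac, Sox2, Brn2 and p63 ChIP-seq peak lists of lung squamous lines were analysed: 27 of 43 samples, of which 4 H3K27ac libraries (2 of LK2, 2 of NCI-H520) form the comparison. The other 16 are inputs and were not analysed here. Chromatin was cross-linked with 1% formaldehyde and sonicated, per the labels' protocols, and Brn2 chromatin was prepared differently. The submitters' processing notes name Bowtie2 as a tool and hg19 (GRCh37) as the build. Peak names begin with MACS; no source used here gives the caller's version, threshold or use of inputs. The deposited score of each peak is the authors' own value of unstated scale, and ranked peaks inside a list only. The regions, lists and tests were chosen with earlier results of these data known.

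Chromosomes 1 to 22 and X were kept, leaving out 202 of the 101151 peaks of the 4 libraries. Peaks overlapping by 1 bp were merged over the 4 libraries, and an overlap of 1 bp counted as presence. Shares carry Wilson 95% intervals. Covered length per 50 kb bin was made to sum to the same total in each library, and bins whose mean reached 1000 bp were kept. The log2(length + 1000 bp) was tested with limma 3.58.1 (R 4.3.3, trend, no covariates, Benjamini-Hochberg adjusted p under 0.05). The fit was also run on simulated lengths, drawn with normal spread around each bin's mean over the 4 libraries. That setting does not stand for bins where a line was at 0. Bins stood in for genes because no annotation of the build was used here. Log2 differences understate changes of bins with little length. Named were the 12 bins per direction with the largest difference among called bins without overlap, counting adjoining bins once, and the 8 widest regions per class. Alternatives changed the pseudocount, filter, scaling, list depth, merging, region width, replicate block and libraries; leave-one-out values of region width, other lines, LK2_GFP, chromosomes, spacing, factors beside each other and factors in called bins were added after seeing the data.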

Additional observations from a re-analysis of the deposited data

How the results depend on the processing

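Depth is unknown for each list, and how much was called limits the counts of private regions and called bins. Bins higher in LK2 numbered 355 without the filter on low length (608 higher in NCI-H520) and 291 without scaling, where 2080 were higher in NCI-H520. The replicate numbers of the lines share only a number (correlation of deviations -0.16 over 10859 bins); with the replicate block 599 bins were higher in NCI-H520 and 347 in LK2, and with the crossed replicate block, chosen after seeing the data, 1281 and 1232. Leaving out 1 library at a time gave 0 to 390 bins higher in NCI-H520 and 0 to 270 higher in LK2, 2320 to 7778 LK2-restricted regions and 4640 to 11635 NCI-H520-restricted regions. Pseudocounts of 200 and 5000 bp, equal list lengths and LK2_GFP as a further library gave 777 to 954 and 579 to 981 bins. Equal list lengths gave 2888 NCI-H520-restricted regions. The upper 50% of each list by score gave 1158 LK2-restricted, 2633 NCI-H520-restricted and 4509 shared regions and a mean Jaccard index between lines of 0.285.

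Factor shares (in LK2-restricted, then NCI-H520-restricted regions) with lists of equal length (1298 peaks) were 7.74% and 1.00% for Sox2 of LK2, 0.739% and 5.70% for Sox2 of NCI-H520, and 3.07% and 0.727% for Brn2 of LK2. With the upper 50% of each list they were 17.5% and 3.09%, 4.15% and 21.0%, and 6.31% and 1.29%, and Brn2 of NCI-H520 was in 0.841% of the NCI-H520-restricted regions. In 1000 bp windows they were 21.4% and 5.38%, 6.43% and 30.8%, 8.13% and 2.20%, and 0% and 1.00% for Brn2 of NCI-H520. Leaving out 1 library at a time gave 12.1 to 30.3% and 4.54 to 7.24% for Sox2 of LK2, 4.44 to 11.7% and 21.6 to 35.5% for Sox2 of NCI-H520, 3.66 to 13.4% and 1.80 to 4.88% for Brn2 of LK2, and 0.0514 to 0.407% and 0.731 to 2.50% for Brn2 of NCI-H520. With equal lists LK2_GFP held 76.7% and 13.1%, and in windows LK2_GFP held 14.3% and LK2_DNp63 12.8% of the NCI-H520-restricted regions. The cause of these moves was not tested.

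For the 24 named bins, 227 values kept their call and 61 did not pass the threshold; limma adjusted p ranged from 2.29e-05 to 0.123 (higher in NCI-H520) and to 0.238 (higher in LK2), and was 0.111 to 0.123 and 0.111 to 0.203 without LK2 replicate 2. Of the widths of the 24 widest regions under equal list lengths, 22 stayed within the spread of the libraries. An overlap of 50% of the shorter interval gives the same classes by construction. Gene loci, transcription starts, gene lists and motif shares were not run.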
